A study of Mus musculus with 11 samples.

Results

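The Bcl2 family genes are described here in β-cells of mice that lack *Raptor*, the scaffold protein of mTOR complex 1. The 10 members were chosen by name, with earlier results of these data known: *Bcl2*, *Bcl2l1*, *Mcl1*, *Bcl2l2*, *Bax*, *Bak1*, *Bbc3*, *Bcl2l11*, *Bid* and *Bad*, of 34728 gene symbols in the deposited table. All 10 were above 0 in at least 1 library, and 8 of them, all but *Bcl2* and *Bak1*, reached the minimum level for the test across genes.

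RNA-seq of GFP-sorted β-cells was compared between 3 libraries from wild type mice (WT), 4 from βRapKOGFP-/- mice without an insulin pellet (KO) and 4 from βRapKOGFP-/- mice with one (KI), which asks whether an effect of *Raptor* loss depends on blood glucose. WT mice were littermates with the genotype *Raptor*+/+, *RIP-Cre*, *Rosa26*GFP, so that all 11 libraries carried the Cre driven by the rat insulin promoter and the GFP reporter, and both mutant groups were *Raptor*-/-. All mice were of the strain C57BL/6 x 129SV, male by the study's reporting form, and 8 weeks old. KO mice were diabetic, and KI mice were kept near normal glucose by the slow-release pellet, with RNA taken 4 weeks after implantation. KI thus differed from KO in the insulin given as well as in blood glucose, and these cannot be told apart here. The GFP label follows cells in which the insulin promoter had been active, so a sorted cell can have lost insulin since, and no group without Cre was compared. The labels do not say that the libraries of a group came from separate animals, so p-values measure the spread between these libraries, which may be partly technical.

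Proteins of this family decide whether the mitochondrial outer membrane stays closed. The effectors Bax and Bak form pores through which cytochrome c leaves, the anti-apoptotic members (Bcl-2, Bcl-xL from *Bcl2l1*, Mcl-1 and Bcl-w from *Bcl2l2*) hold them in check, and the BH3-only members (Puma from *Bbc3*, Bim from *Bcl2l11*, Bid and Bad) sense stress and free or activate the effectors. In β-cells the family is best known for deaths under endoplasmic reticulum stress, high glucose and cytokines, and much of its control lies in phosphorylation, cleavage and protein stability, which mRNA levels do not show.

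The main measurements can be put briefly. None of the 8 tested members passed the test in any comparison, where at most 1.05% of all tested genes passed in any. *Bax*, by far the most abundant member, was 41.9% lower in the mean of KO than of KI, and *Bbc3* was 59.6% higher, with no overlap between the libraries of either gene, as for 14.3% of all tested genes. Neither difference passed the adjusted threshold, and KI levels lay near WT for *Bax* but below WT for *Bbc3*. The *Mcl1* difference between groups was at most 0.17 in size on the log2(FPKM + 1) scale.

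FPKM, the unit of the table, sets a gene's fragments against the length of its transcript and the size of the library, so levels of different genes can be set side by side. The table carries no totals. The depth inferred from the steps between low values was 9498125 to 16644742 fragments a library (median 13543333), at which 1 fragment on a transcript of 1 kilobase is worth 0.0601 to 0.105 FPKM. In the library with the fewest fragments of each gene, *Bax* held about 397 fragments on its longest transcript, *Mcl1* 777 and *Bak1* 0. *Rptor*, which encodes Raptor, was at 0.948 to 1.79 FPKM in WT, 0.485 to 0.937 in KO and 0.423 to 0.623 in KI, below every WT library in all 8 mutant libraries. The 7 β-cell markers were above an FPKM of 1 in all 11 libraries. The summed α-cell, δ-cell, PP-cell and duct markers were higher in every mutant library than in every WT library, and the sum of 5 endothelial markers was 7.02 to 45.3 in KO, 0.0487 to 1.39 in WT, where *Cdh5*, *Kdr* and *Eng* were at 0, and 0.0436 to 2.07 in KI. A pair of libraries stood apart and are left out in turn and together below: KO replicate 1, with the highest endothelial, immune (63.2) and stromal (10.3) sums, and KI replicate 4, with the highest acinar sum (1677 against 2.08 to 13.95 in WT). In sorted cells taken in bulk, fewer cells of a type and less RNA per cell cannot be told apart.

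The start regions of *Bax*, *Bbc3* and *Bcl2l11* are shown because the first pair separated KO from KI and because they hold short motifs that are often discussed beside mTOR signalling: CACGTG, the palindromic E-box read by Myc and TFEB, and TGTTTAC (or GTAAACA on the other strand), the core bound by FoxO factors. Each line gives the 250 bases before a RefSeq start site on GRCm38.p6, 5′ to 3′ on the gene's strand, with the motif in capitals. *Bax* lies on chromosome 7 on the minus strand from 45461697 to 45466898, *Bbc3* on chromosome 7 on the plus strand from 16308393 to 16318205, and *Bcl2l11* on chromosome 2 on the plus strand from 128126038 to 128162547.
Bax, chr7:45466899-45467148, minus strand: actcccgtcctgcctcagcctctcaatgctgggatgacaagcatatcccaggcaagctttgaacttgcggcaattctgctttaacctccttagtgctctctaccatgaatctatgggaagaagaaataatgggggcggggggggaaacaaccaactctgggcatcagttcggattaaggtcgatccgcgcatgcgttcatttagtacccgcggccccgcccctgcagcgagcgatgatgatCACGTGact
Bbc3, chr7:16310011-16310260, plus strand: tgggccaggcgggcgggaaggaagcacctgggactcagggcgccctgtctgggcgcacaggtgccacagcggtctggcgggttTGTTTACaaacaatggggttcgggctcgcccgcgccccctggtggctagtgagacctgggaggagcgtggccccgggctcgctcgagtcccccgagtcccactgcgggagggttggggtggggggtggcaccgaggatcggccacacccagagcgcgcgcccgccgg
Bcl2l11, chr2:128125788-128126037, plus strand: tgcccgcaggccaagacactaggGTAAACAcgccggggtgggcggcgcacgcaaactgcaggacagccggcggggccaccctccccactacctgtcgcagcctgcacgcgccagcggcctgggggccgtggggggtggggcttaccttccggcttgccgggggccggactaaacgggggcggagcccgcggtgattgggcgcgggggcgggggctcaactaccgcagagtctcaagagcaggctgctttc
The motifs were searched on both strands in windows of 300 bases, 250 before and 50 after each start. All 10 members had an entry, with 16 windows in all, of which 2 held the E-box and 2 the FoxO motif. Over all 32851 windows of the same length the shares were 7.15% (2349 windows) and 3.65% (1199 windows). The E-box in *Bax* began 9 bases before the start, and another began 35 bases after it. The FoxO motif began 167 bases before the second start of *Bbc3* and 227 bases before the first start of *Bcl2l11*, and another window of *Bbc3* held an E-box 64 bases before its start. A match describes letters in a window and says nothing of binding in these cells.

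The levels of the members spanned more than the differences between groups. Over the 11 libraries the mean was 69.7 FPKM for *Bax*, 30.2 for *Mcl1*, 12.9 for *Bbc3*, 7.48 for *Bad*, 4.03 for *Bcl2l1*, 1.18 for *Bcl2l2*, 0.908 for *Bid*, 0.720 for *Bcl2l11*, 0.378 for *Bcl2* and 0.0716 for *Bak1*. *Bax* was above 95.4% of the tested genes and *Mcl1* above 88.5%, while *Bcl2l11* was above 1.72%. *Bax* was higher than *Mcl1* in 10 of 11 libraries, the exception being KO replicate 1. *Mcl1* was higher than *Bbc3*, and *Bcl2l1* higher than *Bcl2l2*, in all 11. *Bbc3* was higher than *Bad* in 9 libraries, and the order was turned in KI replicates 1 and 4. The 3 genes near 1 FPKM were not separated: *Bcl2l2* exceeded *Bid* in 9 libraries and *Bid* exceeded *Bcl2l11* in 8. So the family's mRNA in these cells was mostly that of 1 effector and 1 anti-apoptotic gene, with *Bcl2* itself and *Bak1* close to the floor.

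**Figure D1:**
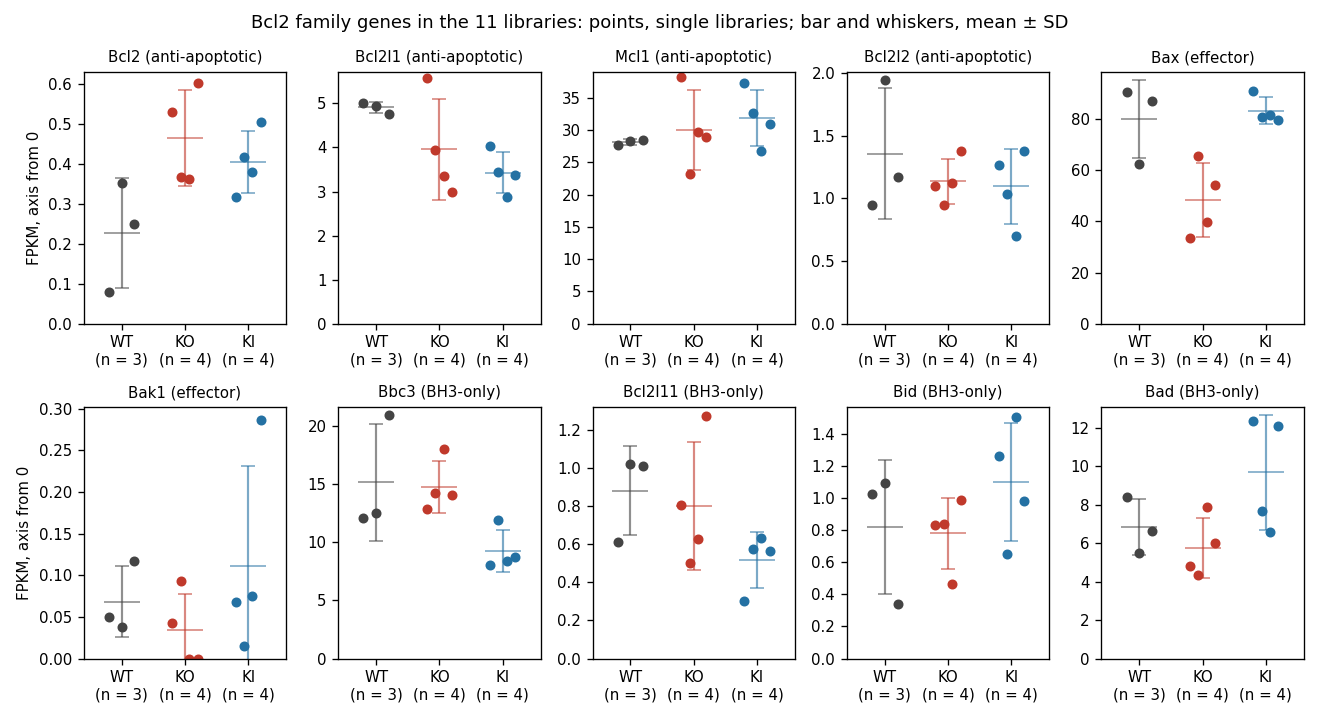
FPKM of the 10 Bcl2 family genes (vertical axes, each from 0) in WT, KO and KI. Points are single libraries, the horizontal bar is the mean and the whiskers are the SD. For *Bax* all 4 KO points (33.6 to 65.6) lie below all 4 KI points (79.8 to 91.2), and for *Bbc3* all KO points (12.9 to 18.0) lie above all KI points (8.01 to 11.9).

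Among the anti-apoptotic members, *Bcl2* was the lowest. It lies on chromosome 1 on the minus strand, from 106538178 to 106714274. Its FPKM was 0.0798, 0.352 and 0.250 in the 3 WT libraries, 0.528, 0.367, 0.361 and 0.602 in the 4 KO libraries, and 0.317, 0.416, 0.378 and 0.503 in the 4 KI libraries. All KO values lay above all WT values, the closest pair being 0.361 and 0.352, while KI and WT overlapped. Of all tested genes, which do not include *Bcl2*, 13.5% did not overlap between KO and WT. On the log2(FPKM + 1) scale the mean difference of KO from WT was 0.26, and an exact permutation test, two-sided and unadjusted, gave p = 0.0286, the smallest that 4 against 3 libraries allow. The same exact test gave p = 0.0857 for KI against WT, p = 0.429 for KO against KI and p = 0.0182 for both mutant groups together against WT. It was run 8 times in all, for *Bcl2* and *Bak1* in 4 comparisons. The lowest WT value stands for about 7.88 fragments, 6.09% of the exon bases are overlapped on the opposite strand by D630008O14Rik, and the counting is not stated to use strand. After rescaling each library by the median of ratios p for KO against WT was 0.0857. Without WT replicate 1 the difference of KO from WT was 0.17, and that for both mutants together was 0.14 with an exact p = 0.0889. The endothelial sums, which were 7.02 to 45.3 in KO and at most 1.39 in WT, and the stromal sums, at least 0.276 in KO and at most 0.197 in WT, moved with the difference of KO from WT. The α-cell, δ-cell, PP-cell and duct sums, higher in all 8 mutant libraries than in WT, moved with that of both mutants together. Their part was not tested.

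*Bcl2l1*, which encodes Bcl-xL, lies on chromosome 2 on the minus strand, from 152780668 to 152831728. It was at 5.005, 4.95 and 4.77 FPKM in WT, 5.56, 3.95, 3.34 and 2.98 in KO, and 4.03, 3.43, 2.88 and 3.37 in KI. The WT libraries had an SD of 0.125, all KI libraries lay below them, and in KO only replicate 1 did not. Of all tested genes 5.02% were likewise lower in KI than in WT with no overlap. The limma difference on the log2(FPKM + 1) scale was -0.42 for KI against WT (95% interval -0.85 to 0.01), with an adjusted p of 0.369. For KO against WT it was -0.28 (-0.71 to 0.15, adjusted p = 0.637), and it ranged from -0.42 without KO replicate 1 to -0.18 without KO replicate 4.

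*Mcl1*, whose protein has a short life and depends on ongoing translation, lies on chromosome 3 on the plus strand, from 95658788 to 95663176. Its FPKM was 27.6, 28.3 and 28.4 in WT, 38.2, 23.2, 29.7 and 28.9 in KO, and 37.2, 32.6, 26.8 and 30.9 in KI. The mutant libraries lay on both sides of WT, with KO replicate 1 the highest and KO replicate 2 the lowest of all 11. The limma differences were 0.07 for KO against WT (-0.35 to 0.49), 0.17 for KI against WT (-0.25 to 0.58) and -0.10 for KO against KI (-0.48 to 0.29), with adjusted p of 0.924, 0.722 and 0.786. Without KI replicate 1 the difference of KI from WT was 0.092. A change of 1.5-fold, which is 0.58 on the log2 scale, lies at or outside each of these intervals. The ratio of *Mcl1* to *Bcl2l1* FPKM was 5.52 to 5.96 in WT, 5.89 to 9.69 in KO and 9.19 to 9.51 in KI. The 4 KI ratios lay above all WT ratios, which is given as a description with no test.

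*Bcl2l2*, which encodes Bcl-w, lies on chromosome 14 on the plus strand, from 54883377 to 54888234. It was at 0.945, 1.94 and 1.17 FPKM in WT, 1.09, 0.943, 1.12 and 1.38 in KO, and 1.27, 1.04, 0.703 and 1.38 in KI. The groups overlapped throughout, and WT replicate 2 alone set the higher WT mean. The limma differences from WT were -0.12 in KO (-0.56 to 0.31, adjusted p = 0.871) and -0.16 in KI (-0.59 to 0.28, adjusted p = 0.756). Of its 50-base stretches, 12.1% are shared with Gm20521 on the same strand, so its reads may be split between both genes.

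The effector *Bax* showed the largest difference between groups among the 8 tested members, in KO against KI. Its FPKM was 90.5, 62.5 and 86.9 in WT (80.0 ± 15.3, SD, n = 3), 33.6, 65.6, 39.96 and 54.5 in KO (48.4 ± 14.4, SD, n = 4), and 91.2, 80.8, 81.8 and 79.8 in KI (83.4 ± 5.26, SD, n = 4). All KO libraries lay below all KI libraries, and below all WT libraries but replicate 2, which was lower than KO replicate 2. WT and KI overlapped. Of all tested genes 7.42% were likewise lower in KO than in KI with no overlap. The limma difference of KO from KI on the log2(FPKM + 1) scale was -0.82 (95% interval -1.29 to -0.35) with an adjusted p of 0.123, and the adjusted p ranged from 0.0181 to 0.311 over 21 alternative settings. The lowest of these came from a fit with library weights, and KO replicate 1 left out gave the highest, with a difference of -0.66. For KO against WT the difference was -0.74 (-1.25 to -0.23, adjusted p = 0.206), and for KI against WT 0.08 (-0.43 to 0.58, adjusted p = 0.905). The last interval reaches 0.58 on the log2 scale, so equal levels in KI and WT are not shown.

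What moved with *Bax* across these groups is given here as values. The endothelial marker sum separated KO (at least 7.02) from KI (at most 2.07) and from WT (at most 1.39) in every library. The stromal sum did so too, at 0.276 to 10.3 in KO, 0 to 0.176 in KI and 0 to 0.197 in WT. The duct sum was 17.0 to 30.6 in KO, 29.8 to 42.1 in KI and 3.75 to 6.76 in WT, the acinar sum was 13.98 to 1045 in KO and 13.4 to 1677 in KI, and the β-cell marker sum was 95671 to 166192 in KO and 70830 to 155753 in KI. Their part in the *Bax* difference was not tested. Without KO replicate 1 and KI replicate 4 the difference of KO from KI was -0.68 (adjusted p = 0.239). Of the exon bases of *Bax* 12.2% are overlapped by Gm45808 on the same strand, and 8.51% of its 50-base stretches are shared with that gene, which is not analysed here.

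*Bak1*, the other effector, lies on chromosome 17 on the minus strand, from 27019810 to 27029009, and was hardly measured. It was at 0.0496, 0.0383 and 0.117 FPKM in WT, 0.0423, 0.0930, 0 and 0 in KO, and 0.0683, 0.0153, 0.0757 and 0.287 in KI. These values stand for 0 to 6.51 fragments, the groups overlapped, and exact permutation tests gave p between 0.314 and 0.970. At this depth a difference between groups was not detectable. In addition, 25.5% of its exon bases are overlapped by Ggnbp1 on the opposite strand.

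Of the BH3-only members, *Bbc3* (Puma, a target of p53 and of FoxO and stress factors) separated KI from both other groups. Its FPKM was 12.1, 12.5 and 21.0 in WT (15.2 ± 5.02, SD, n = 3), 12.9, 14.2, 18.0 and 14.1 in KO (14.8 ± 2.23, SD, n = 4), and 8.01, 11.9, 8.36 and 8.77 in KI (9.26 ± 1.79, SD, n = 4). All KI libraries lay below all WT and all KO libraries, the closest pair being 11.9 in KI and 12.1 in WT, and KO and WT overlapped. KO was thus above KI in *Bbc3* and below it in *Bax*. The limma difference of KO from KI was 0.63 (0.18 to 1.07, adjusted p = 0.151). For KI against WT it was -0.63 (-1.11 to -0.14, adjusted p = 0.247, 0.0485 to 0.785 over 21 alternatives), and without WT replicate 3, the highest library, -0.39 with an adjusted p of 0.785. For KO against WT it was -0.00 (-0.49 to 0.48, adjusted p = 0.998), with a sign that turned under other settings. Groups without overlap and lower in KI than in WT were found for 5.02% of all tested genes, and groups without overlap and higher in KO than in KI for 6.85%. The endothelial and stromal sums again separated KO from KI, and the sum of 5 immune markers separated KI (0.595 to 4.601) from WT (8.20 to 21.6), where *Bcl2l1* was also lower in each KI library. That sum rested on few genes in WT: *Ptprc* and *Cd3e* were at 0, *Lyz2* was at most 0.287, and only 1 of the 5 was above 0 in WT replicate 2. The α-cell (at least 4759 in KI and at most 2438 in WT), δ-cell (4864 and 2514), PP-cell (3616 and 909) and duct (29.8 and 6.76) sums separated KI from WT as well. The part of these sums was not tested.

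**Figure D2:**
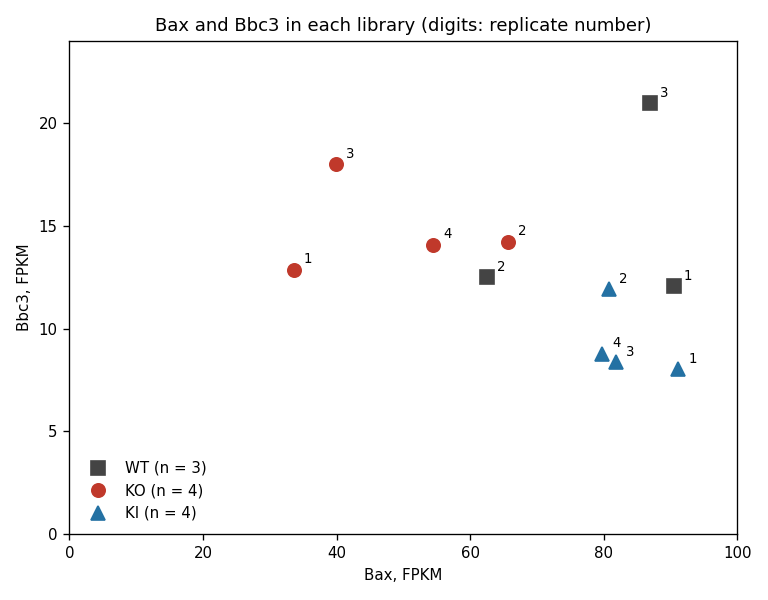
*Bax* (horizontal axis, FPKM from 0) against *Bbc3* (vertical axis, FPKM from 0) in each of the 11 libraries, with the replicate number beside each point. KO libraries sit at 33.6 to 65.6 for *Bax* and 12.9 to 18.0 for *Bbc3*, KI libraries at 79.8 to 91.2 and 8.01 to 11.9, and the WT libraries at 62.5 to 90.5 and 12.1 to 21.0.

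*Bad*, which survival kinases such as Akt and S6 kinase hold inactive by phosphorylation, lies on chromosome 19 on the plus strand, from 6941861 to 6951899. It was at 8.42, 5.50 and 6.62 FPKM in WT, 4.803, 4.34, 7.86 and 6.00 in KO, and 12.3, 7.66, 6.60 and 12.1 in KI. KI replicates 1 and 4 were the highest of all 11 libraries, and KO and KI overlapped through KO replicate 3. KI replicate 4 is the library with the highest acinar sum. The limma difference of KO from KI was -0.64 (-1.16 to -0.13, adjusted p = 0.172), that of KI from WT 0.42 (-0.14 to 0.97, adjusted p = 0.483) and that of KO from WT -0.23 (-0.78 to 0.33, adjusted p = 0.800). The last ranged from -0.37 without KO replicate 3 to -0.088 without WT replicate 1. Gpr137 overlaps 20.5% of the exon bases of *Bad* on the opposite strand. As for *Bax*, the endothelial and stromal sums separated KO from KI, and their part in the *Bad* difference was not tested. The ratio of *Bbc3* to *Bad* FPKM was 1.43 to 3.17 in WT, 2.29 to 3.27 in KO and 0.649 to 1.55 in KI, so that KO and KI did not overlap in this ratio, given with no test.

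*Bcl2l11* (Bim) and *Bid*, a caspase-8 substrate, were both near the lower limit. *Bcl2l11* was at 0.609, 1.02 and 1.012 FPKM in WT, 0.808, 0.500, 0.629 and 1.27 in KO, and 0.302, 0.572, 0.630 and 0.562 in KI. Every KI library was at or under 0.630, where WT and KO each had libraries above 1, and the groups overlapped. The limma difference was -0.31 for KI against WT (-0.73 to 0.12, adjusted p = 0.498), 0.24 for KO against KI (-0.16 to 0.63, adjusted p = 0.472) and -0.07 for KO against WT (-0.50 to 0.36, adjusted p = 0.926). Without KO replicate 4, its highest library, the difference of KO from KI was 0.12. *Bid*, on chromosome 6 on the minus strand from 120891930 to 120916853, was at 1.03, 1.09 and 0.338 in WT, 0.833, 0.842, 0.463 and 0.987 in KO, and 1.26, 0.653, 1.51 and 0.982 in KI. Its groups overlapped, with differences of -0.01, 0.22 and -0.23 for KO against WT, KI against WT and KO against KI (adjusted p = 0.991, 0.682 and 0.537). Without WT replicate 3, the lowest library, the difference of KI from WT was 0.013, and that of KO from KI ranged from -0.34 without KI replicate 2 to -0.14 without KO replicate 3 or KI replicate 3. Bcl2l13 overlaps 17.7% of the exon bases of *Bid* on the opposite strand. For transcripts this low, at 24.6 to 79.4 fragments for *Bcl2l11* and 11.04 to 54.8 for *Bid*, the log2(FPKM + 1) scale understates a change. Over 20 alternative settings the *Bcl2l11* difference ranged from -0.67 to -0.24 for KI against WT and from 0.12 to 0.51 for KO against KI. That of *Bid* ranged from 0.013 to 0.47 for KI against WT.

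**Figure D3:**
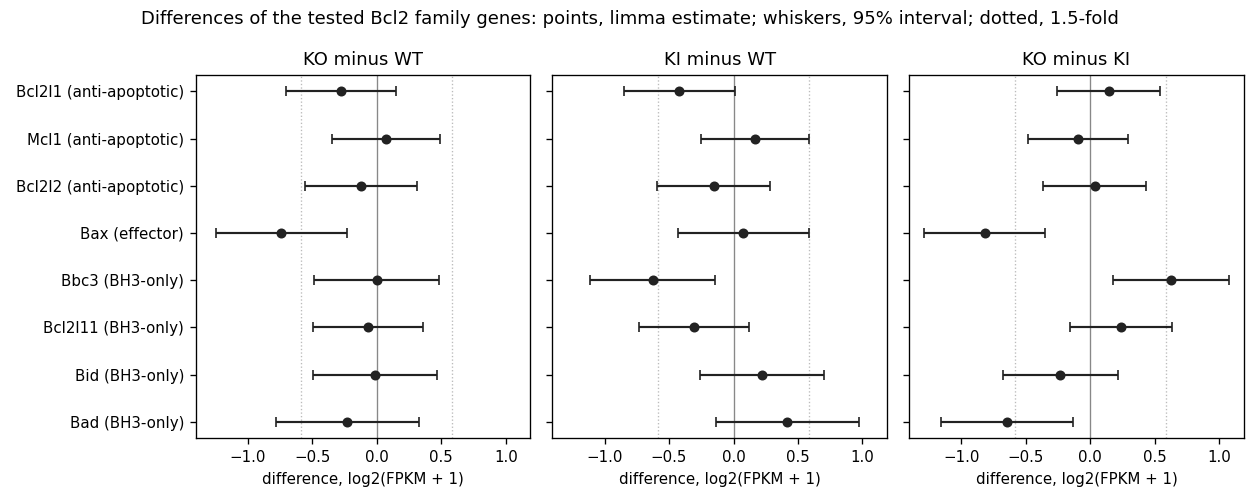
Differences of the 8 tested members between groups on the log2(FPKM + 1) scale (horizontal axis), as limma estimates with 95% intervals, for KO minus WT, KI minus WT and KO minus KI. Dotted lines mark 1.5-fold. The intervals of *Bax* (KO minus WT and KO minus KI), *Bbc3* (KI minus WT and KO minus KI) and *Bad* (KO minus KI) do not reach 0.

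Counted together, 0 of 8 tested members were called (limma, adjusted p of at most 0.05 and at least 1.5-fold) in KO against WT, in KI against WT, in KO against KI and in both mutants against WT. Of all 11251 tested genes 0.969%, 0.551%, 0.00889% and 1.05% were called in the same order. At an unadjusted p of at most 0.05 there was 1 member in KO against WT (*Bax*, lower), 1 in KI against WT (*Bbc3*, lower), 3 in KO against KI (*Bax* and *Bad* lower, *Bbc3* higher in KO) and 0 in both mutants against WT, beside 11.9%, 13.9%, 20.6% and 11.3% of all tested genes. Among the 8 tested members groups did not overlap for 0 in KO against WT, 2 in KI against WT (*Bbc3* and *Bcl2l1*, lower in KI), 2 in KO against KI (*Bax* and *Bbc3*) and 0 in both mutants against WT, beside 13.5%, 10.9%, 14.3% and 3.68%. With so few members, 1 gene moves a share by 12.5 percentage points. The median difference of the members was -0.10, -0.04, -0.03 and -0.16 log2 units, beside 0.01, -0.01, 0.01 and -0.00 over all tested genes. With library weights the fit called 1 member in KI against WT (*Bbc3*) and 1 in KO against KI (*Bax*), beside 2287 and 1212 of all tested genes. The KO and KI comparisons share the same WT libraries and are therefore not independent.

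Stacked by library, the family's sum was 118 to 151 FPKM in WT, 98.3 to 114 in KO and 130 to 156 in KI, so that every KO library lay below every WT and KI library. *Bax* made up 57.5% of it in the mean of WT, 45.1% in KO and 59.3% in KI, and *Mcl1* 20.6%, 28.7% and 22.6%. The sum of the 4 anti-apoptotic genes was 33.6 to 35.6 in WT, 28.5 to 45.3 in KO and 30.7 to 42.8 in KI, and that of the 4 BH3-only genes 20.1 to 28.9, 19.3 to 26.9 and 17.1 to 22.4. Both of these sums overlapped between all groups, and in the group means the lower KO total was mostly that of *Bax*. KO replicate 2 had more *Bax* than WT replicate 2 (65.6 and 62.5) but a lower total (114 and 118), with an anti-apoptotic sum of 28.5 against 35.6. The ratio of *Bax* to the anti-apoptotic sum was 1.76 to 2.69 in WT, 0.740 to 2.30 in KO and 2.13 to 2.66 in KI, overlapping between all groups. Sums follow their most abundant genes and are given with no test.

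**Figure D4:**
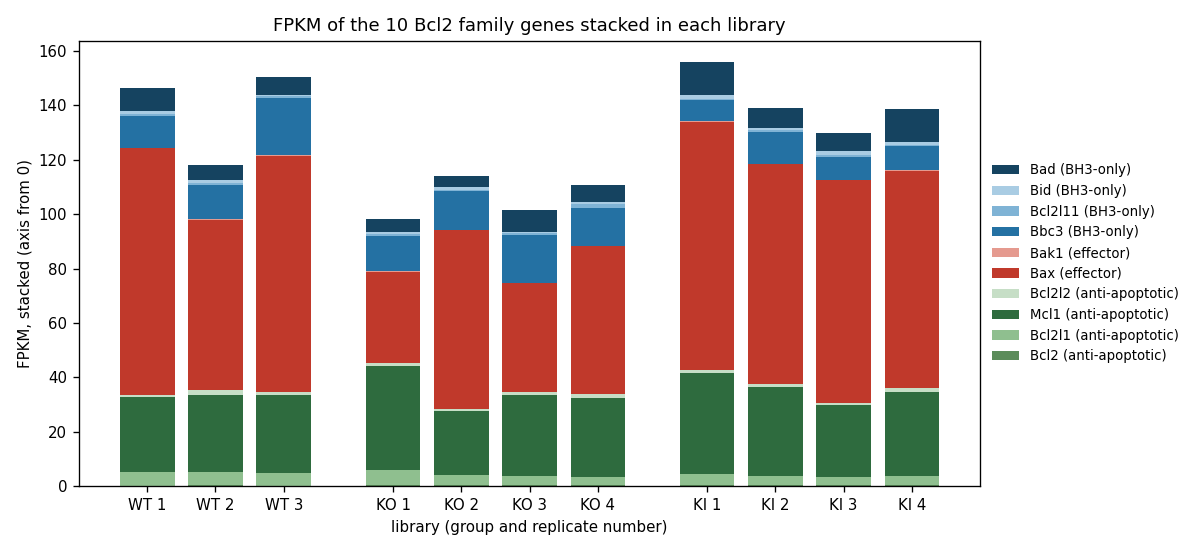
FPKM of the 10 members stacked in each of the 11 libraries (vertical axis, FPKM from 0), anti-apoptotic genes in greens, effectors in reds and BH3-only genes in blues. The KO columns end at 98.3 to 114 and the others at 118 to 156. The red *Bax* segment is shorter in KO in the group means, but it is longer in KO replicate 2 (65.6) than in WT replicate 2 (62.5).

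A wider apoptosis list of 81 genes was read in the same fit, with 59 genes tested and none called in the 4 comparisons, beside 0.969%, 0.551%, 0.00889% and 1.05% of all tested genes. At an unadjusted p of at most 0.05 there were 9 in KO against WT (3 higher, 6 lower), 8 in KI against WT (5 higher, 3 lower), 14 in KO against KI (6 higher, 8 lower) and 8 in both mutants against WT (4 higher, 4 lower). As shares of the tested list these were 15.3%, 13.6%, 23.7% and 13.6%, beside the 11.9%, 13.9%, 20.6% and 11.3% of all tested genes given above. The median difference of the list was 0.01, 0.01, -0.09 and 0.03 log2 units. The named genes below are those with an unadjusted p of at most 0.01 in some comparison or the highest level in their role.

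Most of the genes listed for the outer membrane and release encode products that leak out or form channels there. The listed genes mostly had a lower mean in KO than in KI. Of 9 tested, this held for 8, where 5526 of all 11251 tested genes had a lower KO mean, and the median difference was -0.45 log2 units beside 0.01 over all tested genes. At an unadjusted p of at most 0.05 there were 6 of 9, with 5 lower and 1 (*Opa1*) higher in KO, beside the 20.6% of all tested genes, and none was called. Against WT the median was -0.08 in KO (4 genes with a higher mean and 5 with a lower one) and 0.38 in KI (7 higher and 2 lower), whereas *Bax* was at -0.74 in KO and 0.08 in KI. These genes are 1 of 8 roles that were read. The endothelial sum (at least 7.02 in KO and at most 2.07 in KI) and the stromal sum (at least 0.276 and at most 0.176) also separated KO from KI, and their part was not tested. *Cycs*, cytochrome c, was at 6.71, 4.17 and 3.62 FPKM in WT, 4.04, 4.00, 3.96 and 4.90 in KO, and 8.14, 8.75, 5.89 and 5.67 in KI. KO lay below KI without overlap and WT overlapped both, with a difference of KO from KI of -0.62 (-1.06 to -0.18, adjusted p = 0.149). *Endog*, a nuclease of the mitochondrial intermembrane space, was at 27.5, 20.5 and 23.7 in WT, 24.7, 31.5, 26.7 and 31.0 in KO, and 42.7, 47.6, 39.0 and 29.7 in KI. All KI libraries lay above WT, with a difference of 0.70 (0.27 to 1.13, adjusted p = 0.159). Groups without overlap were found for 7.42% of all tested genes (lower in KO than in KI) and for 10.9% (KI against WT, either direction). The α-cell, δ-cell, PP-cell and duct sums were higher in every KI than in every WT library, and their part was not tested. *Vdac3*, an outer membrane channel and the highest of the group, was at 33.2 to 57.0 in WT, 31.4 to 42.9 in KO and 42.5 to 57.8 in KI, with a difference of KO from KI of -0.51 (-0.94 to -0.08, adjusted p = 0.189). Of the 50-base stretches of *Cycs* 25.9% occur in other genes, and of those of *Vdac3* 12.8%, so both levels are less certain.

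Downstream of the membrane, *Dffb*, the nuclease that cuts DNA once caspases have removed its inhibitor, came nearest to the threshold in KO against WT. It was at 5.56, 7.09 and 8.01 FPKM in WT, 3.31, 2.36, 2.94 and 3.77 in KO, and 5.83, 6.64, 3.32 and 5.09 in KI. KO lay below WT without overlap, with a difference of -0.95 (-1.43 to -0.46, adjusted p = 0.0733, 0.0081 to 0.257 over the alternatives). Of all tested genes 13.5% did not overlap between KO and WT. The endothelial, stromal, α-cell, δ-cell, PP-cell and duct sums were each higher in every KO than in every WT library, and their part was not tested. Its inhibitor *Dffa*, the highest of the caspase group, was at 5.38 to 6.86 in WT, 5.32 to 6.67 in KO and 5.87 to 12.8 in KI. *Birc2*, which encodes the caspase-binding cIAP1, was at 7.37 to 8.06 in WT, 7.26 to 11.8 in KO and 8.63 to 12.6 in KI, and its differences from WT were 0.34 and 0.25 (adjusted p = 0.566 and 0.597). *Tnfrsf1a*, the main receptor of tumour necrosis factor, was at 8.10 to 9.56, 9.08 to 15.2 and 8.98 to 19.0 in the same order.

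Among p53 targets and stress factors, *Cdkn1a* (p21, a p53 target that stops the cell cycle) was higher in all 8 mutant libraries than in WT. Its FPKM was 31.9, 40.5 and 48.3 in WT, 53.4, 69.2, 62.0 and 50.1 in KO, and 76.2, 94.0, 66.8 and 50.7 in KI, and groups without overlap and higher in both mutants were found for 1.90% of all tested genes. The difference was 0.81 for KI against WT (0.31 to 1.31, adjusted p = 0.162) and 0.67 for both mutants together (0.23 to 1.12, adjusted p = 0.192). Of the 8 tested genes of the p53 role, 5 had a higher and 3 a lower mean in both mutants together, with a median of 0.07 log2 units. In that comparison 2 of them reached an unadjusted p of at most 0.05, *Cdkn1a* higher and *Sesn1* lower, beside 11.3% of all tested genes. *E2f1*, a cell-cycle factor that can also induce BH3-only genes, was at 3.07 to 5.26 in WT, 1.59 to 2.56 in KO and 1.23 to 3.03 in KI, below WT in all 8 mutant libraries, with a difference of -0.74 (-1.21 to -0.27, adjusted p = 0.174) for both together. In either direction 3.68% of all tested genes did not overlap between WT and both mutants. The α-cell, δ-cell, PP-cell and duct sums were likewise apart between WT and all 8 mutant libraries (duct 3.75 to 6.76 in WT and 17.0 to 42.1 in the mutants), and their part in the *Cdkn1a* and *E2f1* differences was not tested. *Jun*, an immediate early gene, spread within groups from 88.0 to 817 in WT, 75.6 to 223 in KO and 40.2 to 754 in KI. The FoxO genes whose motif was searched above were within the groups' spread: *Foxo1* was at 6.56 to 16.2 in WT, 11.7 to 14.7 in KO and 12.1 to 18.1 in KI, and *Foxo3* at 1.90 to 3.86, 1.195 to 2.71 and 1.38 to 3.82. These last genes were chosen for the motif and not by the rule.

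Among regulators that act on the proteins, *Usp9x*, a deubiquitinase that can stabilise Mcl-1, was at 3.01, 6.66 and 7.23 FPKM in WT, 10.97, 7.71, 7.57 and 5.04 in KO, and 3.10, 2.92, 3.13 and 3.04 in KI. The 4 KI libraries lay close together and below all KO libraries, next to the lowest WT library, with a difference of KO from KI of 1.08 (0.54 to 1.63, adjusted p = 0.122). *Dynll2*, a dynein light chain that can tether the BH3-only protein Bmf, was at 15.9 to 23.5 in WT, 10.6 to 16.4 in KO and 21.0 to 27.8 in KI, with a difference of KO from KI of -0.76 (-1.17 to -0.35, adjusted p = 0.122). Groups without overlap were found for 6.85% (higher in KO) and 7.42% (lower) of all tested genes, and the endothelial and stromal sums separated KO from KI as above, with their part not tested. *Dynll1*, its relative that can tether Bim, was at 4.70 to 4.98 in WT and higher in all 8 mutant libraries, at 5.77 to 12.2 in KO and 7.04 to 12.7 in KI, with a difference of 0.75 for both together (0.28 to 1.22, adjusted p = 0.165). The α-cell, δ-cell, PP-cell and duct sums moved with it, and their part was not tested. *Ywhae*, a 14-3-3 protein of the kind that holds phosphorylated Bad, was at 100.05 to 109 in WT, 103 to 152 in KO and 110 to 148 in KI. Without WT replicate 1 *Usp9x* and *Dynll2* passed the threshold in KO against KI, and *Usp9x* in KI against WT, where the same fit called 378 and 536 of all 11251 tested genes. Without KO replicate 1 and KI replicate 4 *Dynll1* passed it for both mutants against WT, with an adjusted p of 0.0496, in a fit that called 144 of all tested genes.

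**Figure D5:**
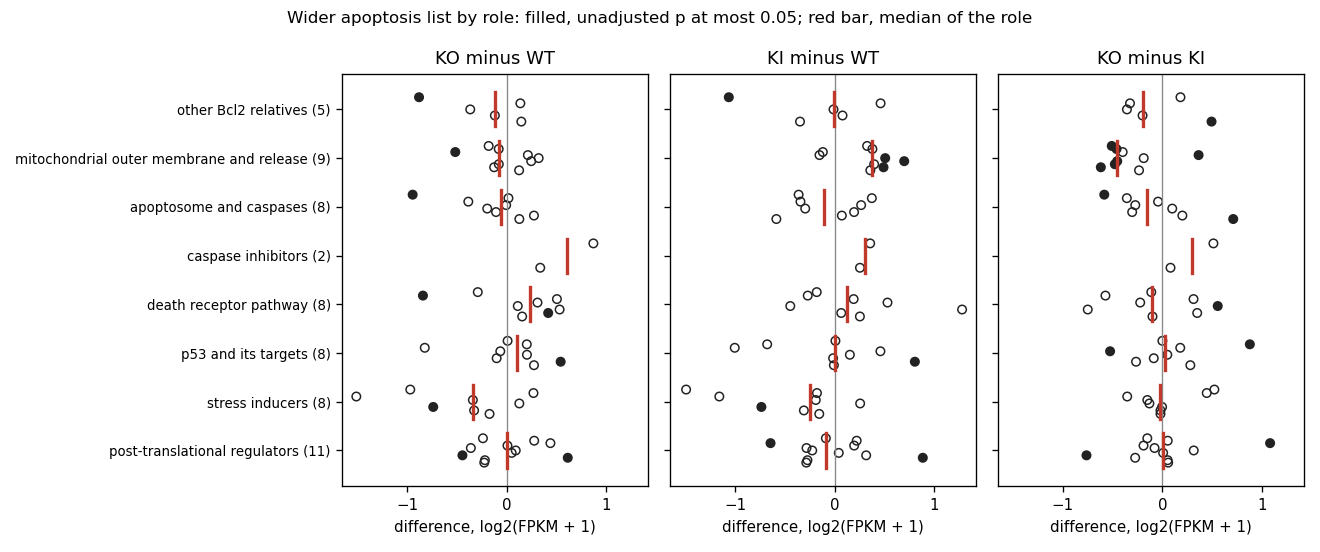
Differences of the 59 tested genes of the wider apoptosis list on the log2(FPKM + 1) scale (horizontal axis), by role (rows, with the number of genes), for KO minus WT, KI minus WT and KO minus KI. Points are genes, filled where the unadjusted p is at most 0.05, and red bars are medians. The outer membrane row has its median at -0.45 in KO minus KI with 8 of 9 genes left of 0.

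Other relatives of the family were mostly low, with 5 of 14 tested. *Bnip3*, a BH3-like protein of mitophagy and the highest of them, was at 81.9 to 114 FPKM in WT, 54.9 to 95.1 in KO and 72.9 to 106 in KI, with a difference of KO from WT of -0.37 (adjusted p = 0.594), and 16.5% of its 50-base stretches occur in other genes. *Bok*, an effector-like relative, was chosen after its values were seen: it was at 4.76, 2.04 and 3.77 in WT, 1.41, 0.677, 1.52 and 2.11 in KO, and 1.36, 1.45, 2.31 and 0 in KI. Its mutant libraries were below the WT mean throughout but overlapped WT replicate 2, with a difference of -0.97 for both together (-1.68 to -0.27, adjusted p = 0.238). The *Bcl2a1* paralogs, anti-apoptotic genes of blood cells that share 69.0% to 79.5% of their 50-base stretches with other genes, were chosen in the same way. *Bcl2a1d* was at 2.58 in KO replicate 1, 0.592 in KO replicate 2 and 1.58 in KI replicate 4, and at 0 in the other 8 libraries. *Lyz2*, a macrophage marker, was highest in these libraries, at 59.4, 13.2 and 3.07 FPKM. *Ptprc*, a general blood cell marker, was at 0.686 in KO replicate 1 and at 0 in KO replicate 2 and KI replicate 4. The sum of 5 immune markers was 63.2, 14.3 and 4.601 in the same libraries. It was 8.20 to 21.6 in WT, where *Lyz2* was at most 0.287 and *Ptprc* at 0. The part of blood cells in these values was not tested.

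The genes whose levels followed a member most closely over the 11 libraries were listed for the 3 members with the smallest p over the 3 groups, by Pearson's r of log2(FPKM + 1) across 11243 tested genes outside the family. For *Bax* these were *Iah1* (r = 0.943), *Acaa1a* (0.918) and *Uqcc2* (0.897), for *Bbc3* 4931406P16Rik (0.888), *Ccnk* (0.886) and *Tnpo1* (0.876), and for *Bad* *Wrap73* (0.954), *Arrdc1* (0.937) and 2310061I04Rik (0.932). *Iah1* was at 21.0 to 27.3 FPKM in WT, 9.05 to 15.8 in KO and 22.2 to 29.9 in KI, with every KO library below every WT and KI library. The points share libraries and depth, and the coefficients are descriptions with no test.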

How the data were processed

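The authors sorted GFP+ cells from dispersed islets and sequenced their RNA. The deposited table holds 1 FPKM value per gene and library, on mm10. The study's methods name Tophat and Cufflinks for these values, while the submitters' processing notes name HISAT2 2.0.4, StringTie 1.3.0 and edgeR, and which of them made the table was not settled here. The unit and its per-library scaling are the authors', and no totals came with it.

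Of 34745 entries 34267 were matched to a symbol. Fits used limma 3.58.1 in R 4.3.3 on log2(FPKM + 1) over the 11251 genes that reached 1 FPKM in 3 or more libraries, with all 11 libraries in the fit and Benjamini-Hochberg adjustment. Calls needed an adjusted p of at most 0.05 and 1.5-fold. Members below the minimum were compared with exact permutation tests. The fit was tested on simulated data. The members and gene lists were chosen with earlier results of these data known. The text names all members, the genes of the wider list with an unadjusted p of at most 0.01 or the highest level of their role, and the 3 genes most like each of 3 members. Alternatives were other filters, pseudocounts, scalings, weights and samples. Depth was inferred from single-exon genes (92.7% to 97.3% of low values whole within 0.02), and precision at low FPKM is limited by it. Promoter windows are RefSeq's, and positions are those of GENCODE vM21. Replicate numbers did not pair libraries. Alignments, the arrays and Cuffdiff results were not used here.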

Additional observations from a re-analysis of the deposited data

Results flagged for a closer look

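Among 50 groups of 4 libraries examined for a library far from the others, chance alone would mark about 1 in 20, and 2 were marked, both in the wider list and none in a member. *Cycs* in KO replicate 4 was at 4.90 FPKM, where the other KO libraries were at 3.96, 4.00 and 4.04, and the gap was 0.916 of the group's range against a limit of 0.829. *Birc2* in KI replicate 4 was at 12.6 FPKM, where the other KI libraries were at 8.63, 8.65 and 8.66, with a gap of 0.992 of the range. KI replicate 4 is the library with the highest acinar marker sum, and its part in the *Birc2* value was not tested.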

How the results depend on the processing

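The count of 0 called members held in all 4 comparisons under every alternative that kept the adjusted threshold, except library weights, which called 1 in KI against WT and 1 in KO against KI. With unadjusted p and 1.5-fold 1, 1 and 3 members were called in KO against WT, KI against WT and KO against KI. The wider list then had 5, 6, 5 and 6 genes in the 4 comparisons, and with library weights 2, 7, 6 and 5. Over the fits that left out a library it had 0 to 1 in KI against WT and 0 to 2 in KO against KI, both highest without WT replicate 1, and without KO replicate 1 and KI replicate 4 it had 1 for both mutants together, where 144 of all tested genes were called. For all genes, library weights gave 551, 2287, 1212 and 1116 calls, unadjusted p 929, 1116, 1355 and 779, and no filter 22, 13, 0 and 23. The fit of only the groups compared gave 17 in KI against WT and 6 in KO against KI. In KO against KI the stricter filter, a pseudocount of 0.1 and both rescalings gave 0, and for both mutants together the stricter filter gave 77. Leaving out single libraries gave 26 to 210, 12 to 536, 0 to 378 and 30 to 177 calls, the 536 and 378 without WT replicate 1, the 210 without KI replicate 4.

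With the replicate number as a block 45, 20, 0 and 53 genes were called, and no member. Same-numbered libraries did not deviate together (mean r = -0.13 over 10 pairs, -0.37 to 0.21, against 0.04 over 30 other pairs), so the numbers are no pairing, and the blocked *Bbc3* difference of KO from WT was 0.017.

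Signs turned only for values near 0. *Bbc3* in KO against WT was 0.075 after rescaling to TPM, 0.010 with library weights and 0.057 without KO replicate 1 and KI replicate 4. In that last fit *Bcl2l1* in KO against KI was -0.0061 and *Mcl1* in KO against WT -0.049. *Mcl1* in KO against KI was 0.021 in TPM, *Bid* in KO against WT 0.032 with a pseudocount of 0.1 and 0.055 in TPM, and *Bak1* in both mutants against WT -0.076 and -0.0077. The causes were not tested. Leaving out single libraries, the ranges that crossed 0 were -0.021 to 0.093 (KI against WT) and -0.036 to 0.035 (both mutants) for *Bak1*, -0.032 to 0.23 for *Bad* (both mutants), -0.090 to 0.17 for *Bax* (KI against WT), -0.14 to 0.24 for *Bbc3* (KO against WT), -0.0013 to 0.24 for *Bcl2l1* (KO against KI), -0.19 to 0.011 for *Bcl2l11* (KO against WT), -0.28 to 0.017, -0.063 to 0.10, -0.25 to 0.051 and -0.26 to 0.034 for *Bcl2l2* (KI against WT, KO against KI, KO against WT, both mutants), -0.22 to 0.11 and -0.10 to 0.22 for *Bid* (KO against WT, both mutants), and -0.22 to 0.015 and -0.049 to 0.18 for *Mcl1* (KO against KI, KO against WT). *Bcl2* in KO against WT was 0.25 (exact permutation p = 0.0857) after the median of ratios. It was 0.17 to 0.33 without single libraries, and 0.14 to 0.30 for both mutants together. In KO against WT these smaller designs cannot reach the threshold. The depth limits what can be said of *Bak1*, *Bcl2*, *Bid* and *Bcl2l11*.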
